A study of Mus musculus with 8 samples.

Results

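The genes described here are 10 genes of the cellular response to low oxygen and of sugar breakdown: P4ha1, Egln3, Bnip3, Ndrg1, Pgk1, Ldha, Pdk1, Hk2, Aldoa and Hif1a. They were chosen by name, with earlier results of these data known. Every probe that the array annotation assigns to one of their symbols was taken, out of 19053 named genes on the array. Of the 10 genes, 9 were matched to a probe, with 18 probes in all, and 13 probes of 8 genes were detected on enough arrays to be tested, among 12474 named genes tested. For Hk2, which encodes a hexokinase, no expression value was analysed here. The single probe of Bnip3, a mitophagy receptor, had only signals at background level, from 66.4 to 82.9 in raw units over the 8 arrays, and none counted as detected.

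RNA came from kidney cells of adult C57B6/CD1 mice that were collected with magnetic beads for CD31, a surface protein of endothelium. Mutants carried Crim1KST264 on both alleles, a gene-trap insertion in the gene for a transmembrane protein that binds bone morphogenetic proteins. Wildtype mice were the controls, and the labels name no further allele or treatment. The 8 samples, each on 1 array, formed 4 groups of 2: females of either genotype carry the numbers 1 and 3, and males of either genotype the numbers 2 and 4; values below are given in that order. The labels do not say whether each array came from its own animal, so p-values measure sample-to-sample spread, of which part may be technical.

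In the presence of oxygen, prolyl hydroxylases such as Egln3 mark the alpha subunits of hypoxia-inducible factor (HIF), among them Hif1a, for destruction. When oxygen is short the subunits persist, pair with Arnt and bind DNA at the core letters ACGTG or GCGTG. Genes raised in this way include those for glycolytic enzymes, for Pdk1, which holds pyruvate back from the mitochondrion, and for P4ha1, which hydroxylates collagen. The kidney is known for steep oxygen gradients, with its medulla poor in oxygen.

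The promoter windows of 4 of the genes are shown because P4ha1 and Egln3 had the largest genotype differences of the 8 tested genes at their brightest probes, and because Ldha and Pgk1 are classical HIF targets. Each window runs 5′ to 3′ on the gene's strand from 250 bases before to 50 bases after a RefSeq start site (GRCm38.p6), and capitals mark every match to ACGTG or GCGTG on either strand, so that overlapping matches run together. The windows lie at chr10:59323046-59323345 (plus strand, P4ha1), chr12:54203825-54204124 (minus strand, Egln3), chr7:46845554-46845853 (plus strand, the first of 2 Ldha start sites) and chrX:106186850-106187149 (plus strand, Pgk1).
P4ha1: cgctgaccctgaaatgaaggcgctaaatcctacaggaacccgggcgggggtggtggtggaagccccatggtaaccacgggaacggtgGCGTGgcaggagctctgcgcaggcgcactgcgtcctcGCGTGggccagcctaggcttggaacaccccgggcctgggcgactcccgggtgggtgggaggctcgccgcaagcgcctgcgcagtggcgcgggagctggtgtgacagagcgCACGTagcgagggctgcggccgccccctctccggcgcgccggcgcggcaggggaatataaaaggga
Egln3: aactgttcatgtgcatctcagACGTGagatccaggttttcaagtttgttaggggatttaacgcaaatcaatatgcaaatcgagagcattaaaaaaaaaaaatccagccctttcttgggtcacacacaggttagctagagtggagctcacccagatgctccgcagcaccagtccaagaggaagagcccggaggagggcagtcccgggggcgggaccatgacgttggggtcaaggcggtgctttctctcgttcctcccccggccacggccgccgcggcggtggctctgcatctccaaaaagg
Ldha: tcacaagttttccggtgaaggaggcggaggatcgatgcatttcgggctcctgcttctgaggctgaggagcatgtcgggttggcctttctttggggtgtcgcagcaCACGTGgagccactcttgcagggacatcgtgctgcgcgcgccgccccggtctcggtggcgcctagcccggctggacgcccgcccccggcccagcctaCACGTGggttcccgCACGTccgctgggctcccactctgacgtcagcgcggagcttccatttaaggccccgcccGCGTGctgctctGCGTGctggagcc
Pgk1: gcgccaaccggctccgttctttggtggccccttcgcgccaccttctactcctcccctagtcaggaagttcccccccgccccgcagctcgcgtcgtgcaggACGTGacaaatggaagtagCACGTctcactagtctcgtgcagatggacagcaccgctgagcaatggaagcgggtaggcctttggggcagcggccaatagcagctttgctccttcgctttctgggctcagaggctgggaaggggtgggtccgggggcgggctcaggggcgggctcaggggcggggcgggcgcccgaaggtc

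The Ldha window held 7 matches, and 2 pairs of them overlap as the palindrome CACGTG. P4ha1 had 3 matches, at positions -163, -126 and -16 from the start, Pgk1 had 2 and Egln3 had 1, at position -229. RefSeq windows were matched for 9 of the 10 genes, Hk2 and Bnip3 among them and Ndrg1 not. Of their 13 windows 11 held a match, and the third Aldoa window and the second Pdk1 window held none. Such matches are common: 43.8% of 32851 mouse windows of the same length hold one, 19.6% with ACGTG and 32.4% with GCGTG. A match describes the letters only.

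The array medians of raw signal ran from 83.2 to 98.5, and 45.1% to 48.7% of the 45281 probes were detected. Mutant male 2 had the lowest of both and stood apart on the second principal component, at 53.8. Wildtype male 4 lay at its other end, at -39.9, and the remaining arrays ran from -14.85 to 3.47. Both tested probes of Crim1 were lower in every mutant than in every wildtype array, at log2 differences of -2.33 and -2.29 (limma, adjusted p = 0.0370 for both). Of 18 markers of endothelium in general, 17 were tested and 16 were detected on every array, but so were all 10 tested markers of the proximal tubule and all 6 of the loop and distal tubule. The sorted material therefore held tubule transcripts as well, and a value below is a level in that mixture.

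No probe of the 8 tested genes passed the test for a genotype difference (limma with Benjamini-Hochberg adjustment over 23841 probes, threshold 0.05). The background was low too, since 0.0378% of the probes tested passed, which is 9 probes, and 0 passed with the pair number as a fixed block and 9 with it as a random block. Over the 8 genes, each taken at its brightest tested probe, the median difference was 0.12 (log2, mutant minus wildtype), against 0.02 over all named genes. The difference was above 0 for 6 of the 8 genes and for 54.3% of all named genes. Of the 13 probes 1, for P4ha1, had an unadjusted p below 0.05, as had 8.78% of all probes.

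P4ha1 encodes the catalytic alpha subunit of collagen prolyl 4-hydroxylase. Its brighter probe (ILMN_1215502, chromosome 10) read, as normalized log2 intensity, 8.31 and 8.42 in mutant females 1 and 3, 8.10 and 7.90 in wildtype females 1 and 3, 9.14 and 8.74 in mutant males 2 and 4, and 8.05 and 8.19 in wildtype males 2 and 4. All 4 mutant arrays lay above all 4 wildtype arrays, and the mutant males were the highest. The mutant mean was 8.65 ± 0.38 and the wildtype mean 8.06 ± 0.12 (SD, n = 4 each). That is a log2 difference of 0.59 (SE 0.13, 95% interval 0.28 to 0.90), or 1.51-fold, which missed the threshold (limma, adjusted p = 0.352). P4ha1 was the only one of the 8 genes whose genotypes did not overlap, and 1.51% of all probes were higher in mutants without overlap and 1.37% lower. In a mixture of cells, more cells of a type and more RNA per cell cannot be told apart.

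The difference for P4ha1 was 0.36 in females (SE 0.18, adjusted p = 1) and 0.82 in males (SE 0.18, adjusted p = 0.229), and the interaction of 0.46 did not pass (SE 0.26, 95% interval -0.16 to 1.08, limma adjusted p = 0.783). Over the alternative settings the genotype difference ran from 0.38 (the authors' processed values) to 0.69, and it was 0.49 without mutant male 2. The male difference ran from 0.51 to 1.02 and the interaction from 0.19, with the mean of the endothelial markers as a covariate, to 0.66; without mutant male 2 the interaction was 0.26. A second P4ha1 probe did not share this separation. ILMN_1234565 read 7.67 and 7.36 in mutant females, 7.20 and 7.60 in wildtype females, 7.79 and 7.49 in mutant males and 7.51 and 7.53 in wildtype males. The genotypes overlapped there, and the difference was 0.12 (SE 0.15, limma adjusted p = 0.915). The brighter probe is annotated to a complementary DNA clone and the dimmer one to the RefSeq transcript.

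Several marker lists differed in level between the genotypes as well. Of the tubule injury list, which includes Havcr1 and Lcn2, all 8 tested markers of 10 were above 0 in mutants, with a median log2 difference of 0.91, and the summed level ran from 2815 to 5167 in mutants and from 1149 to 1447 in wildtype. Of the fibroblast list, all 4 tested markers of 7 were above 0, with a median of 1.07 and summed levels of 1268 to 2218 against 786.2 to 1260. Lum, Col1a1, Col3a1, Spp1 and Clu had no tested probe. The collecting duct list had all 5 tested markers above 0, with a median of 0.35, and the macrophage list 4 of 5, with a median of 0.51. Summed levels of both overlapped between the genotypes. Within females and males the medians were 1.499 and 0.44 for fibroblast, 1.36 and 0.91 for tubule injury and 0.77 and 0.25 for macrophage markers. These were larger in females, as was Ldha (0.32 and 0.14). The collecting duct median (0.09 and 0.58) and P4ha1 (0.36 and 0.82) were larger in males. Over both sexes the endothelial list was lower in mutants, with 16 of 17 tested markers below 0 and a median of -0.57. The 7 genes of dissociation stress had 5 below 0 and a median of -0.08. Ier2 at -0.67 and Hspa1a at -0.43 were the lowest, while Fos was at -0.05, Jun at 0.01 and Atf3 at 0.26. The mean log2 level of the 7 was 12.03 to 12.18 in mutants and 12.17 to 12.33 in wildtype, and their summed level 74080 to 88620 and 81900 to 92310. Over the 8 arrays, which share genotype and sex, that mean had a Pearson correlation of -0.83 with P4ha1 and -0.71 with Ldha. These were taken from the correlations of the 8 genes with every marker list, where others were of like size. Aldoa had 0.94 with the collecting duct list, and Egln3 had 0.79 with the endothelial and -0.76 with the proximal tubule list. The macrophage list had 0.60 with P4ha1 and 0.68 with Ldha. For the same genes the tubule injury list had 0.61 and 0.54, and the fibroblast list 0.53 and 0.64. The collecting duct list had 0.16 with either gene. No single marker of these lists passed the genotype test, and their part in the P4ha1 and Ldha values was not tested.

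**Figure D1:**
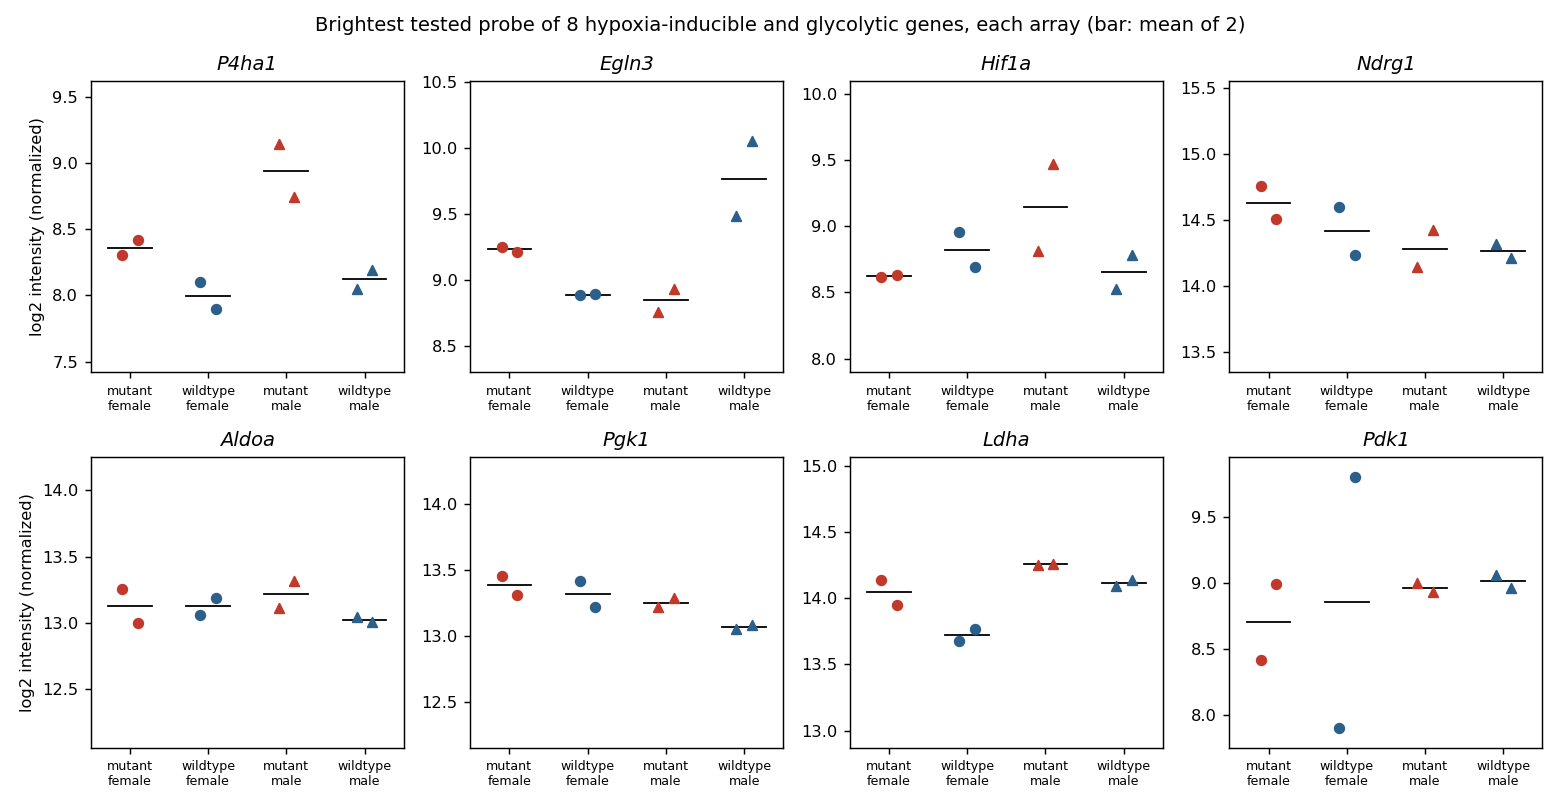
Normalized log2 intensity of the 8 tested genes at their brightest probe, 1 point for each array in the 4 groups, with a line at each group mean. In P4ha1 the 4 mutant arrays (8.31 to 9.14) lie above the 4 wildtype arrays (7.90 to 8.19), and in Egln3 the wildtype males (9.49 and 10.05) are the highest arrays.

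Hif1a encodes the oxygen-regulated subunit of HIF. Its tested probe (ILMN_2852034, chromosome 12) read 8.62 and 8.64 in mutant females, 8.96 and 8.69 in wildtype females, 8.81 and 9.47 in mutant males and 8.53 and 8.79 in wildtype males. The mutant arrays were lower in females and higher in males, without overlap within either sex, and mutant male 4 was the highest of the 8. The genotype difference was 0.14 (SE 0.17, 95% interval -0.26 to 0.55, limma adjusted p = 0.909). It was -0.20 in females and 0.49 in males, and the interaction of 0.69 did not pass (SE 0.34, limma adjusted p = 0.750). These values rest on single arrays: without mutant male 4 the male difference was 0.16 and the interaction 0.36, and without mutant male 2 they were 0.81 and 1.01. With the endothelial mean as a covariate they were 1.06 and 1.19. In females the difference was -0.0663 without wildtype female 1 and -0.33 without wildtype female 3, and over both sexes it ran from -0.0209 to 0.46 over the alternatives. The other 2 Hif1a probes were at background on all 8 arrays.

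Egln3 encodes the prolyl hydroxylase PHD3, which is itself induced by HIF. Its bright probe (ILMN_2605819, chromosome 12) read 9.25 and 9.22 in mutant females, 8.89 and 8.90 in wildtype females, 8.76 and 8.94 in mutant males and 9.49 and 10.05 in wildtype males. Mutants were higher in females and lower in males, with no overlap within either sex. The differences were 0.34 in females (SE 0.21, limma adjusted p = 1) and -0.92 in males (SE 0.21, 95% interval -1.41 to -0.43, limma adjusted p = 0.229), a 1.89-fold lower level in mutant males. The interaction was -1.26 (SE 0.29, 95% interval -1.95 to -0.57), which did not pass after adjustment (limma, adjusted p = 0.656). Over both sexes the difference was -0.29 (SE 0.15, limma adjusted p = 0.675).

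The mean differences of the dim Egln3 probes had the same signs, though these probes were detected on few arrays. All of those arrays were mutant females or wildtype males, the groups where the bright probe was higher. The dim probes passed the filter only through these groups, so their signs are not separate support for the pattern. ILMN_1231847 was detected on 3 arrays, read 5.27 and 5.89 in wildtype males and was not well above background in mutant males, so that it was at least 1.24-fold lower there (limma adjusted p = 0.381). ILMN_2782101 was detected on 2 arrays, mutant female 1 and wildtype male 4, and its male difference of -0.37 is below what the background allows to be stated as a fold. Its genotypes overlapped within both sexes, and the pairs numbered 2 (males, 0.12) and 3 (females, -0.15) had the opposite sign. The patterns without overlap are not rare: 2.49% of all probes were higher in mutant females and lower in mutant males as Egln3 was, and 3.38% showed the opposite order as Hif1a did.

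The endothelial markers were highest in the same arrays as Egln3, the wildtype males, but did not share its order in females. Their mean log2 level was 11.71 and 12.04 in wildtype males, 10.53 and 11.43 in mutant males, 10.76 and 10.90 in mutant females and 10.83 and 11.04 in wildtype females. In males all 17 tested endothelial markers were below 0 in mutants, with a median difference of -0.95, and the summed level ran from 55500 to 101700 in mutants and from 129000 to 165400 in wildtype. In females, where Egln3 was higher in mutants, 14 of the 17 were below 0, with a median of -0.18, and no endothelial marker passed within either sex or over both. Summed levels of other lists also differed in males. That of the 6 loop and distal tubule markers was 92100 to 97030 in mutants and 113800 to 116800 in wildtype. Single markers of that list were split, with 3 above 0 and 3 below and a median of -0.04, from Pvalb at -2.39 to Cldn16 at 0.37. The sum of the 10 proximal tubule markers was 148600 to 161600 in mutants and 139400 to 143700 in wildtype, with 8 above 0 and a median of 0.13. The part of these lists in the Egln3 values was not tested. With the endothelial mean as a covariate the male Egln3 difference was -0.61 and the interaction -0.99. In males that mean separated the genotypes, so the fit cannot tell the mean from genotype there. Without wildtype male 4 the male difference was -0.64, and the difference over both sexes, -0.29 in the fit of all arrays, was -0.15.

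**Figure D2:**
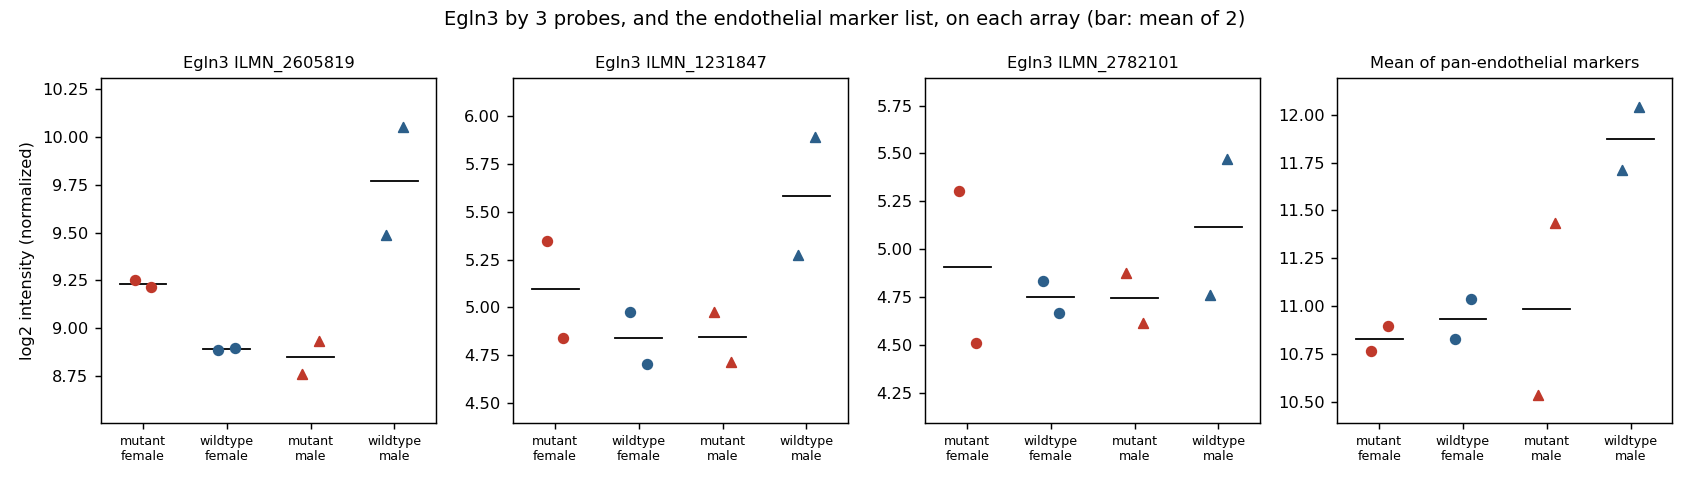
Normalized log2 intensity of the 3 Egln3 probes and the mean of the pan-endothelial markers, 1 point for each array in the 4 groups. The bright probe and the marker mean are both highest in the wildtype males, at 9.49 and 10.05 for the probe and 11.71 and 12.04 for the markers.

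None of the glycolytic genes passed the genotype test. Ldha encodes the lactate dehydrogenase subunit that favours turning pyruvate into lactate. Its probe (ILMN_1257965, chromosome 7) read 14.14 and 13.95 in mutant females, 13.68 and 13.77 in wildtype females, 14.25 and 14.26 in mutant males and 14.09 and 14.14 in wildtype males. Mutants were above wildtype within each sex, although the genotypes overlapped over both sexes. The genotype difference was 0.23 (SE 0.10, 95% interval -0.01 to 0.47, limma adjusted p = 0.598). Ldha and P4ha1 were higher in mutants within both sexes without overlap, a pattern of 3.64% of all probes.

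Pgk1 encodes phosphoglycerate kinase, an ATP-making step of glycolysis, and lies on the X chromosome. Its bright probe (ILMN_2651886) read 13.46 and 13.31 in mutant females, 13.41 and 13.22 in wildtype females, 13.22 and 13.29 in mutant males and 13.05 and 13.08 in wildtype males. The mutant of each same-numbered pair was the higher one in all 4 pairs, as for Ldha and P4ha1, and 7.71% of all probes did this. The groups overlapped in females, and the genotype difference was 0.12 (SE 0.11, 95% interval -0.13 to 0.37, limma adjusted p = 0.844). A dimmer Pgk1 probe (ILMN_2797973) had the other sign, at -0.06 (SE 0.18, limma adjusted p = 0.979), and the remaining probe (ILMN_1226872) was at background on all arrays.

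Aldoa encodes aldolase A, which splits fructose bisphosphate. It read 13.26 and 12.99 in mutant females, 13.06 and 13.19 in wildtype females, 13.11 and 13.32 in mutant males and 13.044 and 13.003 in wildtype males (ILMN_2599130, chromosome 7). Only the males separated, and the genotype difference was 0.10 (SE 0.12, 95% interval -0.18 to 0.37, limma adjusted p = 0.915).

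Pdk1 encodes a kinase that switches off pyruvate dehydrogenase. It read 8.41 and 8.99 in mutant females, 7.90 and 9.80 in wildtype females, 8.995 and 8.933 in mutant males and 9.06 and 8.96 in wildtype males (ILMN_1229318, chromosome 2). The wildtype females held both the lowest and the highest array, so the difference of -0.10 had the widest interval of the 8 genes (SE 0.39, 95% interval -1.01 to 0.81, limma adjusted p = 0.987). Of the other probe of Pdk1 no level can be given, since it was not well above background.

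Ndrg1 encodes a stress-responsive protein that is strongly induced by low oxygen. Its brighter probe (ILMN_1250195, chromosome 15) read 14.76 and 14.50 in mutant females, 14.59 and 14.24 in wildtype females, 14.14 and 14.42 in mutant males and 14.32 and 14.21 in wildtype males. The groups overlapped in both sexes, and mutant male 2 was the lowest of the 8 arrays. The genotype difference was 0.11 (SE 0.14, limma adjusted p = 0.913), and it was 0.33 at a second probe (ILMN_2646166, SE 0.18, limma adjusted p = 0.716). The profiles of these 2 probes over the 8 arrays had a Pearson correlation of 0.938, against 0.446 for the 2 probes of P4ha1.

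**Figure D3:**
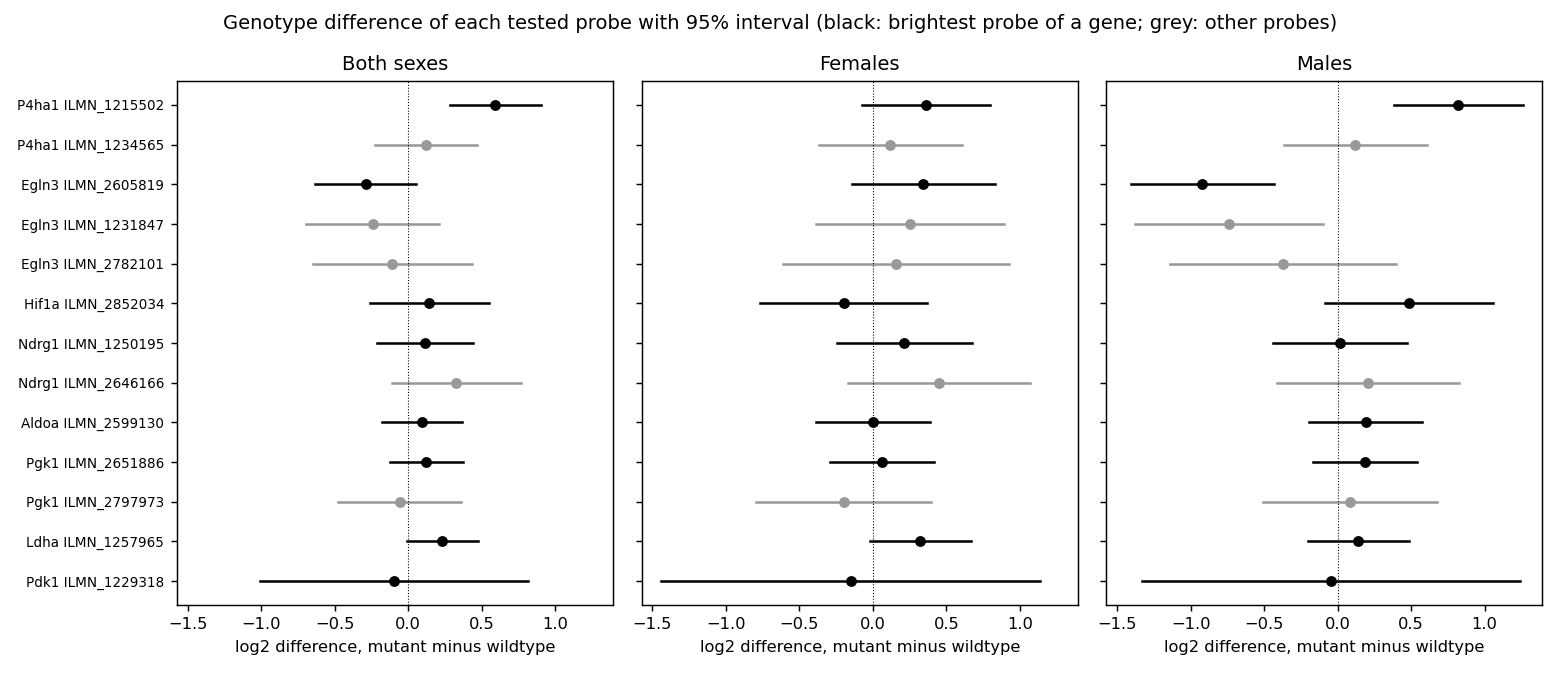
Log2 difference, mutant minus wildtype, with 95% intervals, for each of the 13 tested probes over both sexes, in females and in males. The interval of P4ha1 ILMN_1215502 lies above 0 over both sexes (0.28 to 0.90) and in males (0.39 to 1.26). Those of 2 Egln3 probes lie below 0 in males, the bright one (-1.41 to -0.43) and the dim ILMN_1231847 (-1.38 to -0.10). The dim one was not detected in mutant males. None of the 13 passed after adjustment.

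Within one sex, where 2 arrays stand against 2, none of the 13 probes passed. In females no probe of the array passed (0%), and 4.26% of all probes but none of the 13 had an unadjusted p below 0.05. The genes had a median difference of 0.14, with 3 of 8 higher and 1 lower without overlap, beside 16.1% and 16.7% of all probes. In males 0.00419% of the probes passed, which is 1 probe, the median was 0.16, and 5 of 8 genes were higher and 1 lower without overlap, beside 21.2% and 18.2%. An unadjusted p below 0.05 was found in males for 3 member probes, 1 of P4ha1 and 2 of Egln3, as for 11.2% of all probes. One of these Egln3 probes is the dim ILMN_1231847, which passed the filter only through mutant female and wildtype male arrays. For the interaction 0% passed by limma, and the lowest adjusted p among the 13 was 0.656. There 2 of the 13 probes, the same Egln3 probes, and 6.97% of all probes had an unadjusted p below 0.05.

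Between the sexes, 3.06% of all probes differed after adjustment, and none of the 13 probes did, although 2 of them and 20.1% of all probes had an unadjusted p below 0.05. The median difference of the 8 genes was 0.19 (log2, male minus female), against -0.02 over all named genes. Ldha was 0.30 higher in males (SE 0.10, 95% interval 0.06 to 0.54, limma adjusted p = 0.168), a difference of 0.31 that did pass in the authors' deposited processed values (limma, adjusted p = 0.0342). P4ha1 was 0.35 higher in males (SE 0.13, limma adjusted p = 0.199). Ndrg1 at -0.25 and Pgk1 at -0.19 were lower in males, with adjusted p of 0.357 and 0.368 by limma. In none of the 8 genes were all arrays of one sex above all of the other, which held for 12.6% of all probes. The endothelial markers had a median of 0.60 and the proximal tubule markers one of -0.47 between males and females, and their part in these values was not tested.

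The other genes of the pathway were taken from lists of 10 roles with 75 genes, the 10 named ones included. Of the 75 genes, 5 were not analysed here, 4 had no probe above the filter and 66 were tested. Of the 58 tested genes that are not among the 10, none passed by limma for genotype, within either sex, for the interaction or for sex. At an unadjusted p below 0.05 there were 7, 1, 7, 2 and 14 of them for genotype, females, males, interaction and sex, beside 8.78%, 4.26%, 11.2%, 6.97% and 20.1% of all probes. For genotype 40 were above 0 and 18 below, with a median of 0.08, beside 54.3% of all named genes above 0 and a median of 0.02.

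Among the HIF subunits 2 of 5 were above 0, with Epas1, the HIF-2 alpha subunit of endothelium, at -0.34 (SE 0.17, limma adjusted p = 0.687) and Hif3a at 0.07. Of the oxygen sensors and turnover genes 6 of 9 were above 0. Hif1an, which hydroxylates an asparagine of the alpha subunits, was at 0.27 (SE 0.13, limma adjusted p = 0.633), and Elob, a subunit of the VHL ligase, at -0.06. The glucose transporters went apart, since Slc2a1 was at 0.25 (limma adjusted p = 0.720) and Slc2a3 at -0.43 (SE 0.17, limma adjusted p = 0.524).

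Of the 16 tested glycolytic enzymes, Aldoa, Pgk1 and Ldha among them, 14 were above 0, with a median of 0.13. Pfkp, a phosphofructokinase, was at 0.39 (SE 0.11, limma adjusted p = 0.419), and Pfkfb4, which sets the level of a phosphofructokinase activator, was at -0.07. Of the pyruvate dehydrogenase genes 5 of 8 were above 0, with the kinase Pdk4 at 0.67 (SE 0.20, limma adjusted p = 0.417) and the enzyme subunit Pdhb at -0.13. In lactate and acid export 1 of 3 was above 0, with the lactate carrier Slc16a3 at -0.28 and the carbonic anhydrase Car12 near 0 at 0.0017. Of the gluconeogenic enzymes, which mark the proximal tubule, 3 of 4 were above 0, with Pck1 at 0.39 (SE 0.15, limma adjusted p = 0.512) and Fbp1 at -0.09.

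All 5 tested angiogenic and vasoactive targets were above 0, with a median of 0.35. Adm, the gene for the vasodilator adrenomedullin, had the lowest adjusted p of the 58 genes for genotype, at 0.54 (SE 0.14, limma adjusted p = 0.376). Of the collagen hydroxylases and cross-linkers 5 of 6 were above 0, with the lysyl oxidase Lox at 0.56 (SE 0.25, limma adjusted p = 0.595) and Plod1 at -0.20. Among the mitophagy, stress and growth arrest targets 4 of 7 were above 0, with Ankrd37 at 0.64 (SE 0.30, limma adjusted p = 0.632) and Bnip3l, the mitophagy receptor related to Bnip3, at -0.15.

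Chosen after their values were seen, Angptl4, which inhibits lipoprotein lipase, was at 0.94 for genotype (SE 0.33, limma adjusted p = 0.476), and Car9, a carbonic anhydrase induced by HIF, was 1.68 higher in males (SE 0.37, limma adjusted p = 0.0631). Pck1 was at -0.71 (male minus female) and had the lowest adjusted p for sex of the 58 genes (SE 0.15, limma adjusted p = 0.0580).

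**Figure D4:**
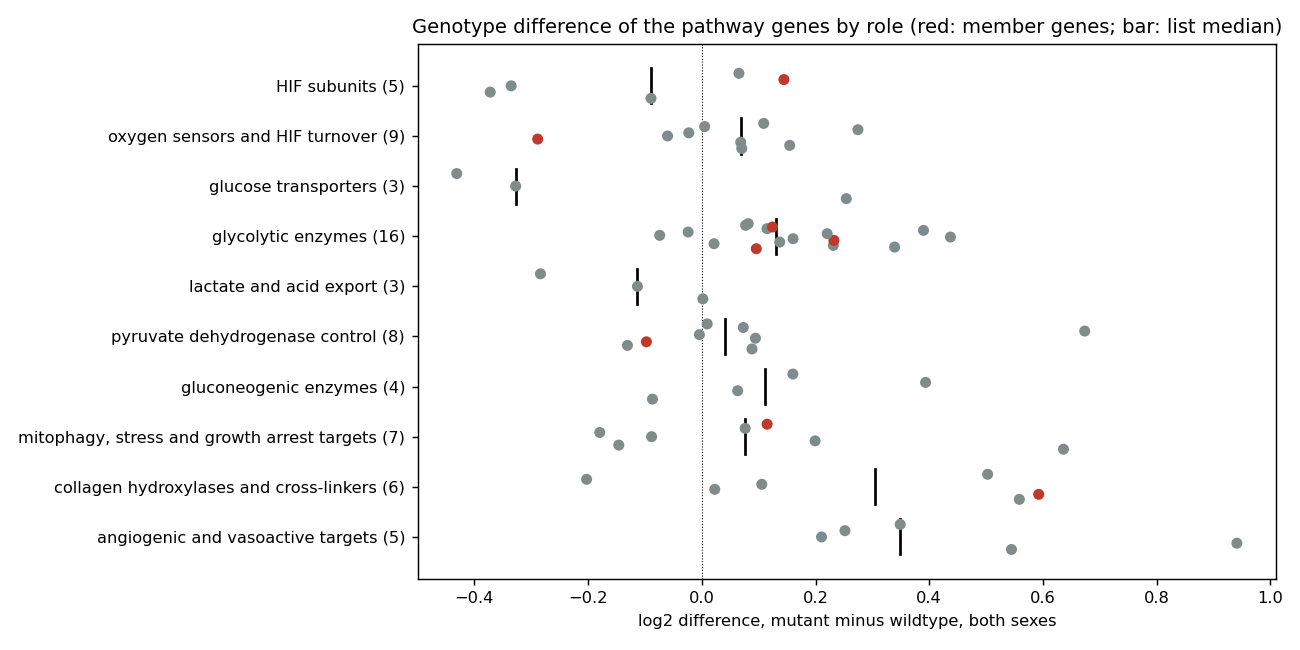
Log2 difference, mutant minus wildtype, of each tested gene in the 10 lists, 1 point for each gene, with a line at the median of each list. The 5 angiogenic and vasoactive targets all lie above 0 with a median of 0.35, the 16 glycolytic enzymes have a median of 0.13, and no gene passed the test.

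The profile of the 8 genes over the arrays, as the mean of their standardised values, was highest in mutant male 4, at 0.71, and mutant female 1, at 0.40, and lowest in wildtype male 2, at -0.36. The genes with the most similar profile over the 8 arrays were Mgp (Pearson r = 0.971), Amhr2 (0.966), Fam180a (0.955), Tcf21 (0.943) and Cdkn2d (0.940). These are the highest of all named genes tested over only 8 arrays that share genotype and sex.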

How the data were processed

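Total RNA of 8 samples was labelled as biotinylated cRNA and hybridised to Illumina BeadChips, 1 array for each sample, per the labels' protocols. The deposited table of probe intensities is linear and shows no sign of background subtraction or scaling between arrays, and it gives a detection p-value for each intensity, per the file headers. A second deposited table holds the authors' own values, which look like log2 intensities floored at 7.15, with array medians of 7.46 to 7.47; how these were centred or transformed is not stated in what was at hand, and they served as an alternative. Each of their columns matched its own array best.

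Background was corrected and arrays were quantile normalized with neqc (offset 16, limma 3.58.1, R 4.3.3). A probe was tested if 2 or more of the 8 arrays had a detection p under 0.05, which kept 23841 of 45281. Arrays have no read depth, and their number limits the precision. The platform annotation named 1 gene for 34885 probes, more than 1 for 18 and left 10378 unnamed; 34818 were matched to the GRCm38.p6 gene table by Entrez ID or accession, 10 were renamed and 67 kept the older symbol.

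A mean for each of the 4 groups was fitted by lmFit, and eBayes added 3.05 prior degrees of freedom to the 4 residual ones. The contrasts were genotype, genotype within each sex, their difference and sex, two-sided, with Benjamini-Hochberg adjustment over all tested probes. A gene stands for its tested probe with the highest mean, and a list for its genes. An "at least" fold sets the brighter group against the higher of each dim array's lowest detected signal and the probe's own. Of the other pathway genes, those past the threshold were to be named, and otherwise in each list the gene above and the one below 0 with the smallest unadjusted genotype p. The 10 genes, the lists and the tests were chosen with earlier results of these data known.

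Same-numbered mutant and wildtype arrays share their sex, and the series describes 4 pairs. After centring on group means the correlation of same-numbered arrays was 0.100 in females and 0.269 in males, so the numbers were treated as pairs in alternative fits, with the number as a fixed or a random block. Python 3.11.15 with pandas 2.3.3 read the promoter windows, and matplotlib 3.10.9 drew the plots. Promoter windows came from RefSeq. Probe coordinates were not used here.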

Additional observations from a re-analysis of the deposited data

Results flagged for a closer look

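Among the 8 genes, 16 sets of 4 arrays of one genotype were checked for an array far from the others. Chance gives that in about 1 of 20 sets drawn from a single distribution. Each set here pooled females and males, so the rate is only a rough guide. Only the mutant arrays of Pdk1 (ILMN_1229318) had such an array: mutant female 1 read 8.41 while the other mutant arrays read 8.93 to 8.995, and its gap was 0.893 of the whole range.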

How the results depend on the processing

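No member probe passed for genotype, within either sex or for the interaction under any alternative that was run, and for sex 1 did, Ldha in the authors' values (0.31, adjusted p = 0.0342). The number of all probes past the genotype threshold, 9, became 0 with the authors' values, 1 with no filter, 0 with the replicate block as a fixed term (9 as a random one), 3 without a sex term and 0 with the endothelial covariate, and 0 to 1 when an array was left out. In males the 1 probe became 0 with the authors' values, 0 with the fixed replicate block (1 with the random one) and 0 with the covariate, and 0 to 7 when an array was left out. For sex the 730 probes became 1120 with the authors' values and 288 with the covariate, and 224 to 725 when an array was left out. Neither replicate block changed a call of a member probe; the sex effect cannot be estimated with the fixed one, and the random one gave 519 probes.

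The median over the 8 genes moved in males to 0.25 with the covariate, and for sex to 0.12 with the authors' values and -0.0532 with the covariate. When an array was left out it ran from 0.0444 (without mutant male 4) to 0.19 for genotype, 0.11 to 0.22 in females, 0.11 to 0.19 in males, 0.05 to 0.14 for the interaction and 0.10 to 0.22 for sex. Signs turned with the authors' values for Ndrg1 in males (-0.00339) and Aldoa for sex (0.0143), and with the covariate for Pdk1 in males (0.31), for genotype (0.10) and for sex (-0.0102) and for Hif1a for sex (-0.18). Signs also turned when an array was left out. Pdk1 then ran from -0.57 to 0.38 for genotype, -1.096 to 0.799 in females, -0.84 to 1.05 for the interaction and -0.26 to 0.68 for sex. Aldoa ran from -0.13 to 0.13 in females and -0.0727 to 0.0588 for sex, Pgk1 from -0.03425 to 0.16 in females, Ndrg1 from -0.13 to 0.15 in males and Hif1a from -0.0209 to 0.31 for genotype. The causes were not tested. Median scaling shifted an array's median by at most -0.17 (log2). The BeadChip as a block was not run, since the headers used here do not give it. With 2 arrays in a group, signals near background and differences of the size seen here are limited by the number of arrays.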
